A study of Rattus norvegicus with 4 samples.

Results

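The phosphofructokinase step commits sugar to glycolysis, and 10 genes around it were followed in rat soleus, a calf muscle of mostly slow fibres that works in standing. They were the 3 phosphofructokinase subunits (Pfkm, Pfkl, Pfkp), the 4 bifunctional enzymes that set the level of its activator (Pfkfb1 to Pfkfb4), the 2 fructose bisphosphatases that run the step backwards (Fbp1, Fbp2) and glucose-6-phosphate isomerase (Gpi). The group of genes was chosen with earlier results of these data known. Within it, every probe set annotated to a listed symbol was taken, whatever its values. This gave 17 of the 8799 probe sets in the table, for 9 of the 10 genes. In all, 4736 genes were named by a probe set. Gpi was not analysed here, as no probe set in the annotation used carried its symbol.

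The arrays were Affymetrix GeneChips, 4 in all, 2 per group, read with RNA of female rats. The control animals were caged with their spontaneous activity for 11 days. For the intermittent unloading, rats could not stand on the hindlimbs during 10 h per day, also for 11 days. Each array carried pooled soleus RNA of 4 to 5 rats, so n = 2 pools per group, and every error and p-value describes the spread between pools and not between animals. Neither strain nor age is stated in the labels used here.

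Phosphofructokinase adds a phosphate to fructose 6-phosphate and is slowed by ATP and citrate. Its strongest activator is a separate sugar phosphate, fructose 2,6-bisphosphate, which the Pfkfb enzymes both make and break down with opposite ends of the same protein. In muscle the subunit Pfkm predominates, Pfkfb1 is the Pfkfb gene named for liver and muscle, and Fbp2 is the muscle form of the bisphosphatase. Fast fibres rely on glycolysis more than the slow fibres that dominate the soleus.

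Pools of 1 group had correlations of 0.987 (controls) and 0.988 (unloaded) in log2 signal over the tested probe sets, and pools across groups 0.973 to 0.974. The slow-fibre markers that define the soleus were bright: over the 5 measured of 8 listed, the summed signal was 35611 to 36215 on the control arrays and 33909 to 37433 on the unloaded arrays, and 0 of the 5 passed (limma, adjusted), nor did any at an unadjusted p under 0.05 (0 of 5). Markers of hepatocytes, in which Fbp1, Pfkl and Pfkfb1 are also expressed, were dim, with a summed signal over 5 measured genes of 128 to 137 in controls and 125 to 148 in unloaded pools, and albumin at 5.2 to 9.1 on the 4 arrays.

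In the unloaded soleus 1 probe set of Pfkfb1 and 1 of Pfkm rose, and 0 of the tested probe sets of the group fell. Signals were analysed as log2(signal + 9), with the 25th percentile, 9, as offset, and a probe set was tested when its mean signal reached 21.0, the 40th percentile. Of the 17 probe sets 12 were tested, for 7 genes, and 5 were too dim. At an adjusted p under 0.05 (limma, Benjamini-Hochberg over all 5257 tested probe sets) 2 of the 12 were higher and 0 lower, against 2.59% higher and 2.66% lower of all tested probe sets. At an unadjusted p under 0.05 the counts were 4 higher and 0 lower, with 20.8% of all tested probe sets past that mark in either direction. The median log2 fold change of the 12, unloaded minus control, was 0.20, and that of all tested probe sets was 0.00. Since 4 of the 12 read Pfkfb1 and several share a source sequence, the 12 are not independent of each other.

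**Figure D1:**
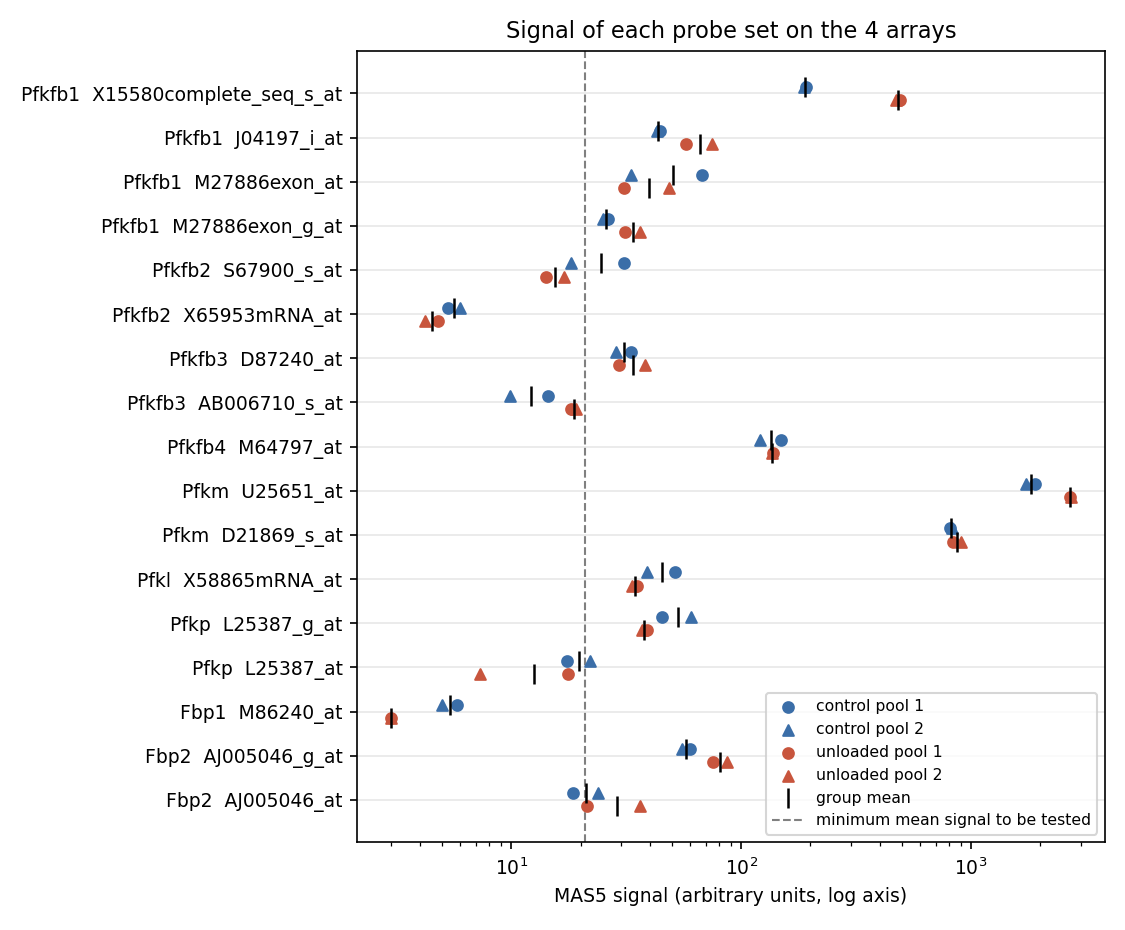
MAS5 signal (log axis, arbitrary units) of all 17 probe sets on the 4 arrays, with circles for pool 1, triangles for pool 2, blue for control, red for unloaded and a vertical tick for each group mean. The dashed line is the mean signal of 21.0 needed for a test, and X15580complete_seq_s_at of Pfkfb1 goes from 188.0 to 191.8 in controls to 473.5 to 491.0 in unloaded pools.

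Pfkfb1 was read by 4 probe sets, and they did not give 1 answer. On X15580complete_seq_s_at its signal was 191.8 and 188.0 in the control pools and 491.0 and 473.5 in the unloaded pools. Both unloaded pools therefore lay far above both controls, and pools of a group differed by little. The means were 189.9 ± 2.69 and 482 ± 12.4 (SD, n = 2), a ratio of 2.54, and the log2 fold change was 1.30 (SE 0.10, 95% interval 1.07 to 1.54, limma adjusted p = 3.14e-04). This was the 15th largest rise and the 24th smallest p among the 5257 tested probe sets.

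The other Pfkfb1 probe sets were dimmer. J04197_i_at read 44.4 and 42.9 in controls and 57.4 and 74.3 in unloaded pools. The groups did not overlap, but the unloaded pools were spread (65.85 ± 11.95), and the log2 fold change of 0.50 (95% interval 0.10 to 0.89) did not pass (limma adjusted p = 0.155). M27886exon_g_at read 26.4 and 25 against 31.1 and 36.3, again without overlap, with a log2 fold change of 0.30 (95% interval -0.13 to 0.72).

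M27886exon_at, made from the same sequence record as M27886exon_g_at, read 67.5 and 33.0 in controls and 30.8 and 48.4 in unloaded pools. Here the control pools differed by more than the groups did, and the log2 fold change was -0.25 (95% interval -0.94 to 0.45). Which Pfkfb1 transcript each probe set reads was not tested. Pfkfb1 is known to have alternative first exons, and the annotation used here names only the gene.

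Whether the probe sets of a gene moved apart was asked on each array, from the difference of their log2 values. X15580complete_seq_s_at stood 1.91 and 1.92 above J04197_i_at in the control pools and 2.91 and 2.53 above it in the unloaded pools, so the gap widened by 0.81. Against M27886exon_g_at the gap widened by 1.01 and against M27886exon_at by 1.55, in each case with no overlap of the groups. In exact permutation tests over the arrays, two-sided, each gave p = 0.333 (0.444 adjusted over 8 such pairs), which is the smallest p that 2 against 2 arrays allow. Lack of overlap was not particular to X15580complete_seq_s_at. The difference of J04197_i_at to M27886exon_at shifted by 0.74 and that to M27886exon_g_at by 0.20, both without overlap. The M27886exon_at and M27886exon_g_at pair overlapped, as did the Fbp2 pair. With the 4 probe sets averaged, Pfkfb1 had a log2 fold change of 0.46 (SE 0.16, 95% interval 0.10 to 0.82) and did not pass (limma adjusted p = 0.148). The call for Pfkfb1 therefore belongs to 1 probe set and is not one for the gene as a whole.

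**Figure D2:**
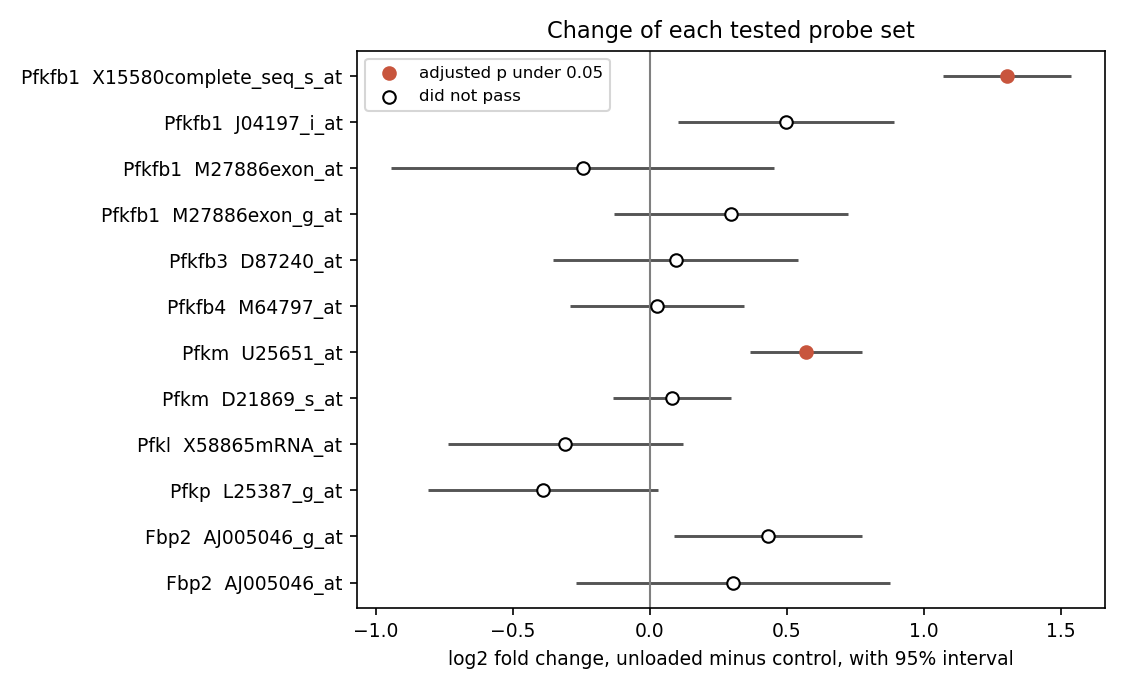
Log2 fold change (unloaded minus control) of the 12 tested probe sets with the 95% interval of the limma fit. Filled points passed at an adjusted p under 0.05: X15580complete_seq_s_at of Pfkfb1 at 1.30 and U25651_at of Pfkm at 0.57.

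Among the catalytic subunits, Pfkm, the muscle form, rose on 1 of its 2 probe sets. Its signal on U25651_at was 1895.7 and 1738.2 in the control pools and 2687.0 and 2712.5 in the unloaded pools. The unloaded pools were close to each other and both were above both controls. The means were 1817 ± 111 and 2699.8 ± 18.0 (SD, n = 2), 1.49 times as high, with a log2 fold change of 0.57 (SE 0.09, 95% interval 0.37 to 0.77, limma adjusted p = 0.0113).

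The second Pfkm probe set, D21869_s_at, read 812.6 and 828.2 in controls and 831.9 and 904.4 in unloaded pools. The unloaded pools were barely above the controls, and the log2 fold change of 0.08 (95% interval -0.14 to 0.29) did not pass. On this interval a rise as large as that of U25651_at lies outside what D21869_s_at gave. The gap between the probe sets went from 1.21 and 1.06 in controls to 1.68 and 1.58 in unloaded pools, a widening of 0.49 (exact permutation p = 0.333, the smallest possible). Averaged over both, Pfkm had a log2 fold change of 0.32 (SE 0.08, limma adjusted p = 0.0553).

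The call for U25651_at did not hold whichever array was left out, with limma adjusted p of 0.0681 and 0.109 without control pool 1 and 2 and 0.0855 and 0.0797 without unloaded pool 1 and 2. That of X15580complete_seq_s_at held in all 4 cases (adjusted p = 0.00940 to 0.0156). In the series as a whole such splits are frequent: of 894 genes with several tested probe sets 91 had one that passed, and 63 of those 91 had another that did not.

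Pfkl, the subunit named for liver, read 51.5 and 38.8 in controls and 35.2 and 33.6 in unloaded pools. The unloaded pools were lower without overlap, yet the controls differed from each other by more than the group means did, and the log2 fold change of -0.31 (95% interval -0.74 to 0.12) did not pass (limma adjusted p = 0.391). Pfkp, the platelet form, read 45.3 and 60.6 against 38.8 and 37.0 on L25387_g_at, a log2 fold change of -0.39 (95% interval -0.81 to 0.03) that did not pass either (limma adjusted p = 0.273). Its other probe set, L25387_at, comes from the same record and was too dim to test, at 17.4 and 21.9 in controls and 17.7 and 7.3 in unloaded pools, which overlap.

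**Figure D3:**
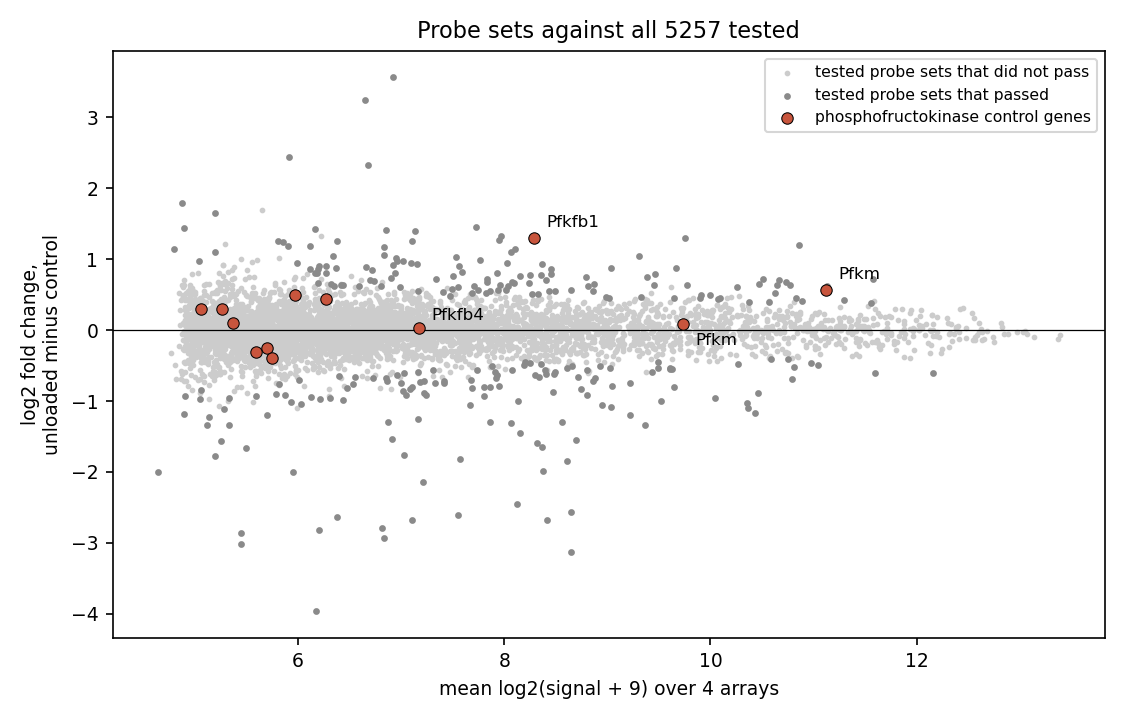
Log2 fold change (unloaded minus control) of all 5257 tested probe sets against their mean log2(signal + 9) over the 4 arrays, with the 12 phosphofructokinase control probe sets in red. The Pfkfb1 and Pfkm points that passed sit at 1.30 and 0.57, and most of the others lie among the dim probe sets at the left.

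The 3 remaining Pfkfb genes gave no call. Pfkfb4, first known from testis, read 149.1 and 120.3 in controls and 137.0 and 136.4 in unloaded pools, so the unloaded pools fell between the controls. Its log2 fold change of 0.03 had a 95% interval of -0.29 to 0.35, which leaves room for a modest change either way. Pfkfb3, the inducible form with the highest kinase activity relative to its phosphatase, read 33.2 and 28.6 against 29.5 and 38.0 on D87240_at, with overlap and a log2 fold change of 0.09 (95% interval -0.35 to 0.54).

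Its second probe set, AB006710_s_at, was below the signal needed for a test. It read 14.4 and 9.9 in controls and 18.1 and 19.2 in unloaded pools, higher without overlap. Pfkfb2, the heart form, was below it on both probe sets. S67900_s_at, with a mean of 20.0 just under the limit, read 30.9 and 18.2 in controls and 14.1 and 16.9 in unloaded pools, and X65953mRNA_at read 5.3 and 6.0 against 4.8 and 4.2. Signals this low are noisy in MAS5 and say little about whether the transcript is present.

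Fbp2, the muscle bisphosphatase, did not pass on either probe set. AJ005046_g_at read 59.9 and 55.2 in controls and 75.1 and 86.8 in unloaded pools, so both unloaded pools were above both controls. The means were 57.55 ± 3.32 and 80.95 ± 8.27 (SD, n = 2), with a log2 fold change of 0.43 (SE 0.15, 95% interval 0.09 to 0.78, limma adjusted p = 0.157). AJ005046_at, made from the same record, read 18.5 and 23.8 against 21.4 and 36.2, with overlap and a log2 fold change of 0.30 (95% interval -0.27 to 0.88).

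Fbp1, the liver bisphosphatase and the neighbour of Fbp2 in the rat gene table, with 0 genes listed between them, was too dim to test. It read 5.8 and 5.0 in controls and 3.0 on both unloaded arrays.

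Both unloaded pools lay above both control pools for 7 of the 17 and below them for 5, and 5 overlapped. On the whole array, Affymetrix controls aside, 20.9% did so upwards and 22.7% downwards. Among the 12 tested, 6 were higher and 2 lower without overlap, against 25.5% and 25.3% of all tested probe sets. With 2 pools a group, lack of overlap is thus frequent across the array and singles out none of these genes.

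The RefSeq promoter windows (GRCr8, 250 bases before to 50 after the listed start) of Pfkfb1 and Pfkm are shown so that their letters can be compared. For each of these genes 1 probe set passed. Pfkfb1 lies at chrX:22941926-22942225 on the plus strand, with capitals on the E box letters CANNTG. Pfkm lies at chr7:131113849-131114148 on the plus strand, with capitals on ACGTG, the core of the hypoxia response element, here on the opposite strand.
Pfkfb1: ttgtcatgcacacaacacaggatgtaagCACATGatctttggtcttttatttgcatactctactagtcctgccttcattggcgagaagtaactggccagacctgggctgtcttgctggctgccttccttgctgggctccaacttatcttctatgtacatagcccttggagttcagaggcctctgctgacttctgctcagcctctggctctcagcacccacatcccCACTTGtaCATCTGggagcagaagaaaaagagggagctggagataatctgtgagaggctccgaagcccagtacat
Pfkm: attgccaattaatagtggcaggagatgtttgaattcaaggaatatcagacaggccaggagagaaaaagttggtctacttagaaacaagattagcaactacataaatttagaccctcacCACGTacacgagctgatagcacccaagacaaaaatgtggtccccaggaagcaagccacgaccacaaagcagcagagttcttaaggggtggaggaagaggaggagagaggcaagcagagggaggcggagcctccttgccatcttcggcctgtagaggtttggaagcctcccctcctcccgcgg

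Both strands were searched. The E box, which myogenic factors and other helix-loop-helix proteins bind, occurred 3 times in the Pfkfb1 window, starting 222, 25 and 17 bases before the start, and 0 times in that of Pfkm, and 72.1% of the 33469 windows held at least 1. ACGTG occurred once in the Pfkm window, 132 bases before the start, and 0 times in that of Pfkfb1, against 19.3% of windows. The GC box GGGCGG, present in 33.1% of windows, was in neither window and in 6 of the 9 member windows found. These 9 include the window of Gpi, which had no probe set, and lack that of Fbp2. CACGTG, which is both an E box and holds ACGTG, was in 1 of the 9, that of Pfkfb3, against 6.42% of windows. TATAAA (14.2% of windows) and the MEF2 motif (3.29%) were in 0 of the 9, and the M-CAT motif CATTCC (14.2%) was in that of Fbp1 alone. These are matches of letters and not binding sites, and the start that soleus uses for either gene was not tested.

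Around the phosphofructokinase step, 22 further genes of glycolysis and gluconeogenesis were listed, of which 14 had a probe set with 1 symbol and 12 were tested, each by its brightest. Of these 12, 2 rose, 0 fell and 10 did not pass (limma, adjusted). At an unadjusted p under 0.05, 6 were higher and 2 lower, and the median log2 fold change was 0.28. Among all tested probe sets, 2.59% were higher and 2.66% lower at the adjusted threshold and 20.8% passed unadjusted in either direction. Their median was 0.00. Pkm, the pyruvate kinase of muscle, read 1286.6 and 1343.4 in controls and 1840.6 and 1932.3 in unloaded pools, a log2 fold change of 0.52 (SE 0.09, limma adjusted p = 0.0154). Eno1, an enolase, gave 0.39 (SE 0.09, limma adjusted p = 0.0421) on its brightest probe set. Its other tested probe set gave 0.38 and did not pass (limma adjusted p = 0.0604). Both calls were lost whichever array was left out, and the count was then 0 of 12, with 4 to 9 at an unadjusted p under 0.05.

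Upstream, hexokinase Hk2 read 199.2 and 217.5 against 121.6 and 150.9 on its brightest probe set, a log2 fold change of -0.59 (95% interval -0.90 to -0.27, limma adjusted p = 0.0514), and -0.05 on another. Downstream, Pgam1 was lower on all 3 of its probe sets and passed on 1 (-0.83). The others gave -0.36, on the brightest, and -0.60 (limma adjusted p = 0.123 and 0.0546). The probe set that passed is not the brightest and is named here after its value was seen. Gapdh was not analysed here, as no probe set carried its symbol alone.

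**Figure D4:**
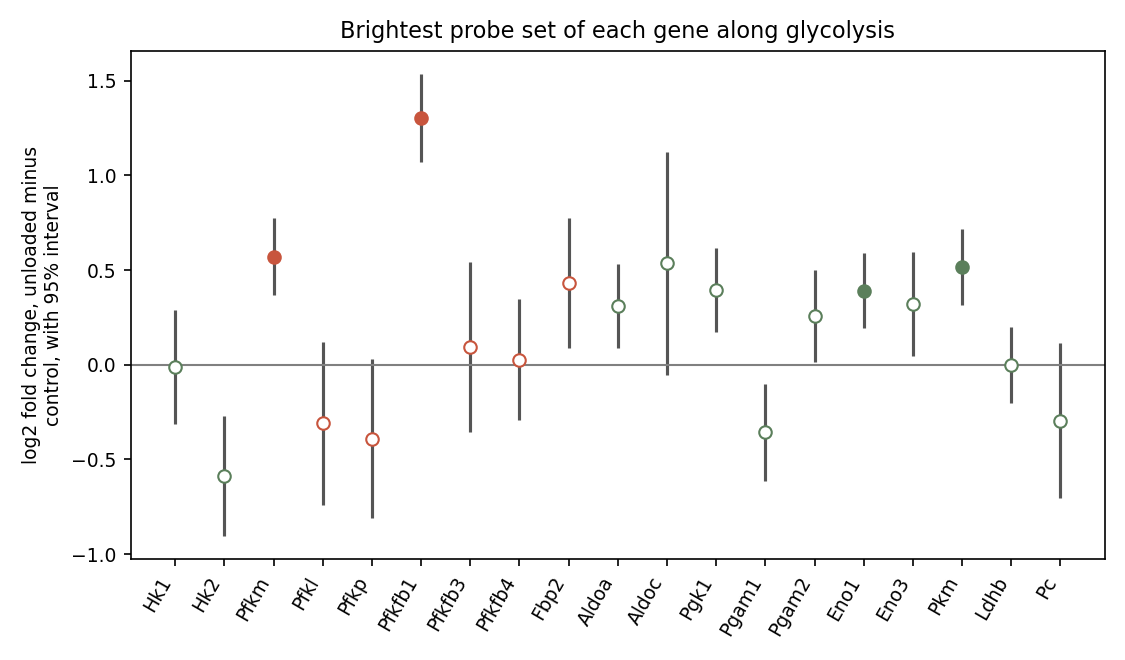
Log2 fold change (unloaded minus control) with the 95% interval for the brightest tested probe set of each gene, with the phosphofructokinase control genes in red and the other glycolysis and gluconeogenesis genes in green. Filled points passed at an adjusted p under 0.05: Pfkm (0.57), Pfkfb1 (1.30), Eno1 (0.39) and Pkm (0.52).

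Fast-fibre markers mostly rose, as did 1 probe set each of Pfkfb1 and Pfkm. Of 10 listed, 9 were tested, and 6 rose, 0 fell and 3 did not pass (limma, adjusted). Of all tested probe sets 2.59% were higher and 2.66% lower. At an unadjusted p under 0.05, 6 markers were higher and 0 lower. Those that did not pass were Myh1 (log2 fold change -0.04), Myh4 (0.15) and Pvalb (-0.14). The summed signal of the 9 was 8203 to 9617 on the control arrays and 13953 to 14183 on the unloaded arrays, with none at 0. In bulk muscle a larger share of fast fibres and more of a transcript per fibre cannot be told apart. The part of fibre type in the rises on those Pfkfb1 and Pfkm probe sets was not tested. Blood markers gave summed signals of 4326 to 4567 in controls and 5107 to 5199 in unloaded pools over 3 genes, and smooth muscle markers 969 to 1087 and 1205 to 1306 over 4, with 0 genes of either list past the threshold (limma, adjusted), 2 and 1 of them higher at an unadjusted p under 0.05, and none at 0. The listed haemoglobin gene Hba-a1 had no probe set. Hba-a3, a haemoglobin gene off the list, is named because its pattern was nearest to Pfkm U25651_at. It read 145.1 and 130.8 in controls and 213.8 and 208.9 in unloaded pools. Its log2 fold change of 0.59 passed (limma adjusted p = 0.0294). The part of blood and smooth muscle in the results was not tested. Of the 14 tested markers of hepatocytes, adipocytes, leukocytes, endothelium and Schwann cells 0 passed (limma, adjusted), with 2, both of adipocytes and in opposite directions, at an unadjusted p under 0.05.

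The patterns most like that of Pfkfb1 X15580complete_seq_s_at over the 4 arrays were found among 4339 tested probe sets of other single genes, by the Euclidean distance of log2 values centred on their own mean. The nearest were Cited2, a transcriptional co-regulator (distance 0.0969), Gpd1, the cytosolic glycerol 3-phosphate dehydrogenase (0.116), Txnip, an inhibitor of glucose uptake (0.132, and 0.192 on a second probe set) and Ucp3, a mitochondrial uncoupling protein (0.179), against a median distance of 1.33. Gpd1, for instance, read 27.9 and 26.2 in controls and 83.2 and 71.5 in unloaded pools, with a log2 fold change of 1.26. For Pfkm U25651_at the nearest were the haemoglobin gene Hba-a3 (0.0377), Csrp2 (0.0575), the sulfotransferase Sult1a1 (0.0587), Vezf1 (0.0708) and the phosphodiesterase Pde4b (0.0710), against a median of 0.633. A distance over 4 arrays describes these pools and is mainly the likeness of 1 difference between groups.

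**Figure D5:**
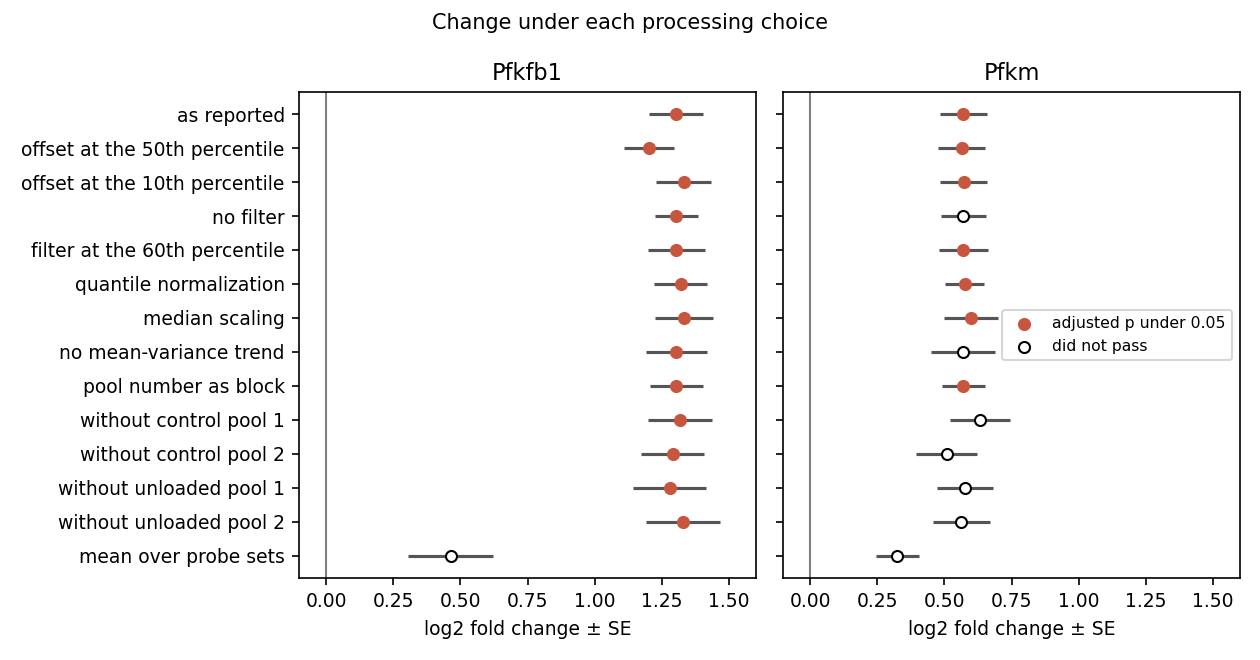
Log2 fold change ± SE (unloaded minus control) of Pfkfb1 X15580complete_seq_s_at and Pfkm U25651_at as reported and under each processing choice, with filled points at an adjusted p under 0.05. Pfkfb1 passed in every setting on its own probe set and not when its 4 probe sets were averaged (0.46), whereas Pfkm kept its direction in all settings and lost its call in 7 of 13.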

How the data were processed

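Total RNA was extracted with Trizol and labelled with biotin, per the labels. The authors' deposited intensity for each probe set is a MAS5 signal on a linear scale, per the submitters' processing notes and the values; neither notes nor labels give its version or settings. Trimmed means (2% cut from either end) lay at 150.2 or 150.3, and the signals were used without further normalization. Of 8799 probe sets, 59 Affymetrix controls were left out, and 7006 had 1 symbol, updated through the RefSeq gene table (GRCr8). A linear model of group was fitted to all 4 arrays in limma (version 3.58.1, R version 4.3.3; mean-variance trend in eBayes), leaving 2 residual degrees of freedom beside 5.80 from the prior. Fold changes on the log2(signal + 9) scale are too small for dim transcripts. The fit was tested on simulated data. Members, lists and tests were chosen with earlier results of these data known. The named genes were all member probe sets, the called genes of the glycolysis list with Hk2, Pkm and Gapdh, and the 5 probe sets nearest in pattern to the brightest of Pfkfb1 and Pfkm. A gene's brightest probe set is that with the highest mean log2 signal. Python 3.11.15 and matplotlib 3.10.9 made the plots.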

Additional observations from a re-analysis of the deposited data

How the results depend on the processing

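Alternatives were other offsets (10th and 50th percentile), no filter or one at the 60th percentile, quantile normalization, median scaling, eBayes without a trend, a block for pool number, each array left out, and each gene's probe sets averaged. Pfkfb1 X15580complete_seq_s_at passed in 12 of 13, with 1.28 to 1.33 when an array was left out, and not as the mean of 4 probe sets (0.46). Pfkm U25651_at passed in 6 of 13. It gave 0.57 without a filter (limma adjusted p = 0.0547) and without a trend (0.0764), 0.51 to 0.63 with an array left out (0.0681 to 0.109), and 0.32 as the mean of its probe sets. The count of called members was 1 in place of 2 without a filter, without a trend and with any array left out. All called probe sets numbered 276, against 90 without a filter, 113 without a trend and 67 to 84 with an array left out. The other glycolysis genes called were 0 without a filter (8 at an unadjusted p under 0.05) and 0 with any array left out. With an array left out, some probe sets that did not pass changed sign: M27886exon_at ran from -0.68 to 0.19, positive without control pool 1 (0.19) and without unloaded pool 1 (0.018), Pfkfb3 D87240_at from -0.049 (without unloaded pool 2) to 0.24, and Pfkfb4 from -0.12 (without control pool 2) to 0.17. The cause was not tested. In the labels, same-numbered pools share only a number, and whether they were handled together is not stated (correlation of deviations -0.04). With the replicate block all calls numbered 165, glycolysis calls 1 (Pkm), and member calls 2. With 4 arrays, precision is limited.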
